A study of Homo sapiens with 6 samples.

Results

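The zinc finger gene clusters of chromosome 19 were examined for H3K27ac peaks in 2 human cell types. They were taken as 5 windows in hg19, lettered here from the short arm to the end of the long arm. Window A runs from 19.8 to 24.4 Mb, window B from 36.8 to 38.2 Mb, window C from 44.3 to 45 Mb, window D from 52.3 to 54 Mb and window E from 56 to 58.95 Mb. Every peak that overlapped a window was a member, whatever its strength, so the choice used position only. The windows held 288 of the 87864 peaks of both lists, 196 of 56420 M2 peaks and 92 of 31444 THP-1 peaks. THP-1 is an established monocytic leukaemia line, labelled as human monocytes. The other cells are labelled M2 macrophages, a name for macrophages polarised towards the alternative state, and the cells they were made from and the agents used are not given in the sources used here. Both were grown under the same stated culture conditions, in RPMI with serum, and no treatment or time separates them in the labels. Of 6 libraries (YY1, H3K27ac and input from each cell type), the 2 H3K27ac libraries were used, and the others were not analysed here. With 1 library per cell type there is no replicate error, so no difference below carries a test, and every interval is a 95% interval of counting error only.

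KRAB zinc finger proteins are the largest family of human transcription factors. Each has an array of C2H2 zinc fingers that reads DNA, in many cases that of a transposable element, and a KRAB domain that recruits the corepressor TRIM28 (KAP1), through which H3K9 methylation is laid down. Their genes arose by repeated tandem duplication and lie side by side in clusters, most of them on chromosome 19. The 3′ exons of many of these genes carry H3K9me3, while their promoters can be active. H3K27ac, the acetylation measured here, marks active promoters and enhancers.

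A list of 177 zinc finger genes of these clusters was set against the gene order of RefSeq (GRCh38.p14), and all 177 were found on chromosome 19. Between the first and last listed gene of each cluster RefSeq placed 221 protein-coding genes, of which 185 had a zinc finger family name. The share was lowest in window E, with 61 of 87, and window C held 20 of 20. As peaks and promoter sequences are in different builds, no peak was assigned to a gene.

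RefSeq promoter sequences (GRCh38.p14, 300 bases, from 250 before to 50 after the start) were found for 147 of the 177 genes, and the first entry of each gene was used. The 7 letters CCGGAAG, the core bound by ETS-family factors such as GABPA, were present on either strand in 79 of 147, 53.7% (45.3 to 62.0%). The same letters were in 14.0% of the promoters of the 1038 other protein-coding genes of chromosome 19 and in 14.2% of those of all 15843 protein-coding genes. Over all 27305 genes of the table, non-coding ones included, the share was 10.7%. Their 87 matches had a median position of -14.5 bp relative to the start (interquartile range -30.5 to 7.5 bp). The YY1 core AANATGGC was in 24 of 147, 16.3% (10.7 to 23.3%). It was in 9.54% of the other chromosome 19 genes (7.82 to 11.5%, an overlapping interval), 7.92% of all protein-coding genes and 6.82% of the whole table. Over all 186 entries of the listed genes the YY1 share was 12.9% (8.45 to 18.6%), against 8.22% (6.82 to 9.81%) of the other chromosome 19 entries. The ETS share was then 48.4%, against 13.9%. The GC box GGGCGG was in 60.5%, against 67.1% of the other chromosome 19 genes, 58.5% of all protein-coding genes and 44.6% of the whole table. Over all windows together it was thus about as frequent as in coding genes at large. By window its share ran from 25.9% in window B (11.1 to 46.3%) to 86.7% in window D (69.3 to 96.2%). TATAAA was in 3.4%, against 7.42%, 9.63% and 12%. These 4 are part of 13 letter strings tried, and were chosen after their shares were seen. Matches can overlap, and the palindrome CTTCCGGAAG counts as 2 ETS cores. A match is a description of the letters and was not compared with binding. The intervals count each promoter as independent, though the genes of a cluster arose by duplication, and this relatedness was not taken into account. The sequences below show first the entry with the most ETS cores. The next has the most ETS and YY1 cores together among the 10 entries with both. The last is the first by name with none of the 4 motifs, and ties went to the first by name. The chosen entries belong to ZNF787 (chr19:56121246-56121545, minus strand), ZNF582 (chr19:56393485-56393784, minus strand) and ZFP30 (chr19:37656212-37656511, minus strand), in GRCh38.p14. Capitals mark ETS and YY1 cores on either strand, which meet in ZNF582, and 25 of the 147 entries had none of the 4 motifs.
ZNF787: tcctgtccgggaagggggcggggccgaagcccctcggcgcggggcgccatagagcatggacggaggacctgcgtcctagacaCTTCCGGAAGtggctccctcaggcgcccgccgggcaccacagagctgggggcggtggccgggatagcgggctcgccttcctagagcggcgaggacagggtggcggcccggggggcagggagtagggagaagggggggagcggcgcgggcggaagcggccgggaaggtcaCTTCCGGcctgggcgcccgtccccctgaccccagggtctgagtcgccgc
ZNF582: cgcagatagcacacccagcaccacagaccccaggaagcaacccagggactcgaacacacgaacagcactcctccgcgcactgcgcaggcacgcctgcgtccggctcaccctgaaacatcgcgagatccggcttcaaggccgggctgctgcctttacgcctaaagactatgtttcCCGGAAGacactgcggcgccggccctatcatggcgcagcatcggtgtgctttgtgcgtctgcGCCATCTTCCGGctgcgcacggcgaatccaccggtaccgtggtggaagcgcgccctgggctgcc
ZFP30: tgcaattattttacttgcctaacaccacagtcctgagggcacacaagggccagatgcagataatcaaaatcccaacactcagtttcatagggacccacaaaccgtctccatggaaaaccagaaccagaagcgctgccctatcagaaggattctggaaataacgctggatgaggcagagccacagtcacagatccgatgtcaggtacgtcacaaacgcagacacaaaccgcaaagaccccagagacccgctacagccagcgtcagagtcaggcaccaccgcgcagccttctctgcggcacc

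H3K27ac peaks were sparse in the windows in both cell types. The M2 list had 17.3 peaks per Mb of window (14.9 to 19.9) and the THP-1 list 8.11 (6.53 to 9.94). The rest of chromosome 19, 44.4 Mb without the longest stretch free of peaks, had 44.1 M2 peaks per Mb (42.2 to 46.1) and 26.1 THP-1 peaks per Mb (24.6 to 27.6). In both lists the intervals of the windows and of the rest were far apart. M2 peaks covered 1.61% of the windows and THP-1 peaks 0.535%, against 4.61% and 2.03% of the rest. The THP-1 list is the shorter over the whole genome too, so its lower number alone is not particular to these clusters.

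**Figure D1:**
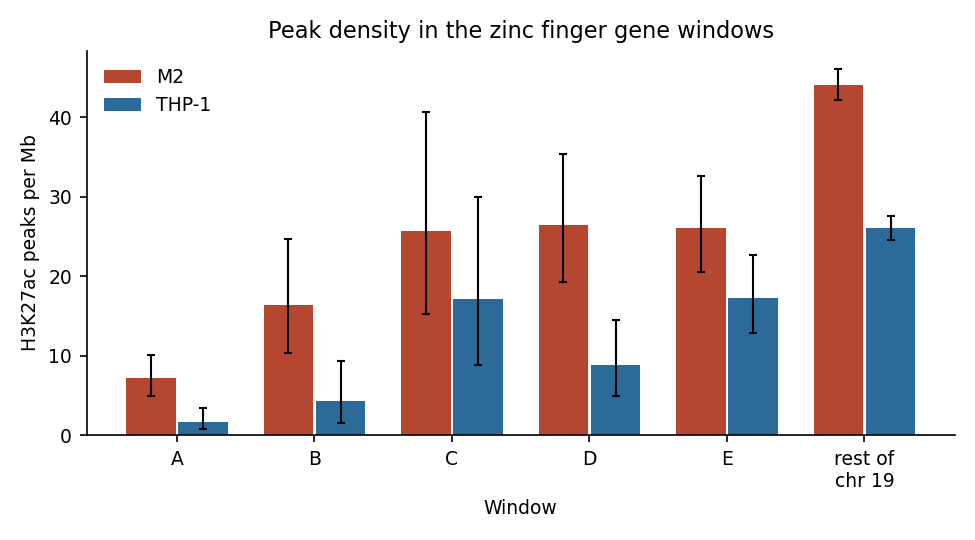
H3K27ac peaks per Mb (y axis) in windows A to E and in the rest of chromosome 19 (x axis), M2 list in red and THP-1 list in blue, 1 library each. Bars are counts divided by length, with exact 95% Poisson intervals, and range from 1.74 (THP-1, window A) to 44.1 (M2, rest of chromosome 19).

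The windows were not alike. Window A, the long array of the short arm that holds ZNF91 and its relatives, had 33 M2 peaks, 7.17 per Mb, and 8 THP-1 peaks, 1.74 per Mb. Window B had 23 M2 peaks, 16.4 per Mb, and 6 THP-1 peaks, 4.29 per Mb. Windows C, D and E had nearly the same M2 density, 25.7, 26.5 and 26.1 per Mb, from 18, 45 and 77 peaks. Their THP-1 densities were 17.1, 8.82 and 17.3 per Mb, from 12, 15 and 51 peaks, so window D was the one of these with few THP-1 peaks for its M2 peaks. Set against the coding genes of each run in RefSeq, M2 peaks ranged from 0.767 per gene in window B to 0.978 in window D, and THP-1 peaks from 0.2 in window B to 0.6 in window C. Window A, lowest per Mb, had 0.868 M2 peaks per coding gene. Peaks were counted over the whole window, but genes only from the first to the last listed gene. Peaks outside that run thus count without their genes, and the order of the windows per gene may depend on them. Per listed gene window E came first in both lists, with 1.38 M2 and 0.911 THP-1 peaks, but 26 of the 87 coding genes of its run have other names, and per coding gene it had 0.885 and 0.586.

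The ratio of M2 to THP-1 peaks was 2.13 in the windows (1.65 to 2.76). It was 1.69 in the rest of the chromosome (1.57 to 1.82) and 1.80 on the other chromosomes (1.77 to 1.82), so the interval of the windows took in that of the other chromosomes and overlapped that of the rest. Window A had a ratio of 4.13 (1.87 to 10.3), window B 3.83 (1.52 to 11.5) and window D 3.0 (1.64 to 5.79). In windows C and E it was 1.5 (0.684 to 3.41) and 1.51 (1.05 to 2.20). Without window E the ratio of the others was 2.90 (2.02 to 4.25), above the interval of the rest. Window E is large and its own ratio is low, so leaving it out raises the pooled value. Without window A, B, C or D the ratio was 1.94, 2.01, 2.225 or 1.96, and each interval overlapped that of the rest. Covered length gave a ratio of 3.0 in the windows and 2.27 in the rest.

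Along the windows, 47 bins of up to 250 kb gave the same order. M2 peaks outnumbered THP-1 peaks in 34 bins, the numbers were equal and above 0 in 5, both were 0 in 7, and THP-1 peaks were more numerous in 1. THP-1 peaks were missing from 21 bins and M2 peaks from 7, and all 7 were also without THP-1 peaks. The bin with the most peaks was the first of window E, with 16 M2 and 14 THP-1 peaks. That bin alone had 64 M2 and 56 THP-1 peaks per Mb, above the mean density of the rest of the chromosome. In whole bins of 1 Mb, 8 in the windows held 4 to 27 M2 peaks (median 14), and 41 outside held 1 to 84 (median 44). Of those 41, 13 held no more M2 peaks than the fullest window bin, so low density was not confined to the windows.

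**Figure D2:**
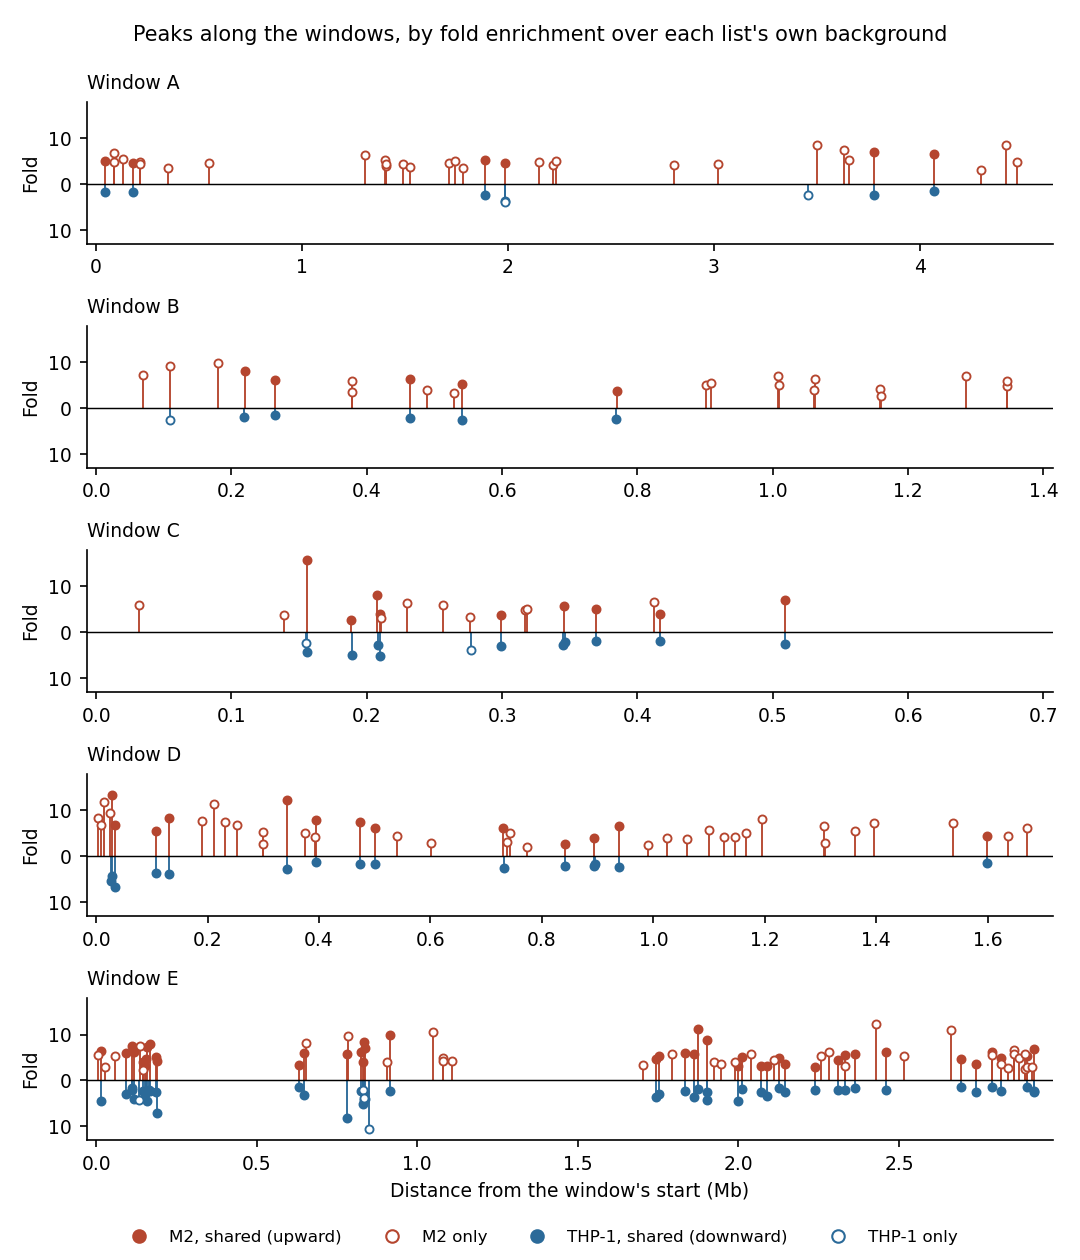
Peaks along windows A to E by distance from the window's start (x axis, Mb) and fold enrichment over the background of their own list (y axis), M2 upwards in red and THP-1 downwards in blue. Filled points overlap a peak of the other list and open points do not: M2 peaks without a partner number 27, 18, 9, 32 and 35 in windows A to E, and the first 250 kb of window E hold 16 M2 and 14 THP-1 peaks.

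Peaks of the windows were somewhat narrower than those of the rest. The median width was 711.5 bp in the M2 list (interquartile range 526.75 to 1154.75 bp, 95% interval of the median 675 to 799 bp), against 782.5 bp outside (754 to 827 bp). In the THP-1 list it was 547.5 bp (407.25 to 773.25 bp, interval 471 to 598 bp), against 621.5 bp (601 to 646 bp). The M2 intervals overlapped, and the THP-1 intervals only just did not. With lists of equal length the M2 medians were 893 bp (753 to 1052 bp) and 1105 bp outside (1060 to 1154 bp). With peaks within 1000 bp merged they were 891 bp (744 to 1038 bp) and 1257.5 bp (1199 to 1315 bp). Under these settings the M2 intervals did not overlap. The difference lay at the wide end: 62 M2 peaks of the windows, 31.6%, were over 1000 bp, against 38.6% of the rest, and 10, 5.10%, were over 2000 bp, against 11.3%. The lower quartile of M2 widths was higher in the windows, 526.75 against 464 bp. In the THP-1 list, 11 peaks of the windows (12%) were over 1000 bp, against 21.5% of the rest, and 1 was over 2000 bp. Median M2 widths were 726, 803, 772, 724 and 676 bp in windows A to E, and median THP-1 widths 372, 558.5, 504.5, 598 and 565 bp, so M2 peaks were the wider in each window. The widest M2 peak of any window was chr19:52325891-52329308, 3418 bp, and peaks up to 7549 bp were found in the rest of the chromosome.

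**Figure D3:**
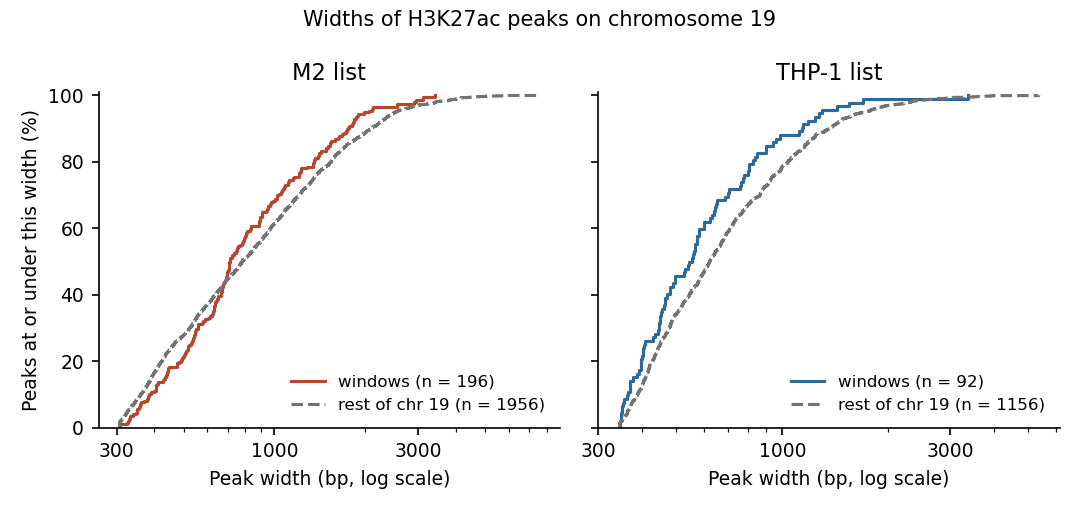
Cumulative share of peaks (y axis, %) at or under a width (x axis, bp, log scale) for the windows (solid, 196 M2 and 92 THP-1 peaks) and the rest of chromosome 19 (dashed, 1956 and 1156 peaks). The M2 curves cross below 1000 bp and the windows have fewer wide peaks, and the THP-1 curve of the windows lies at narrower widths over nearly its whole length.

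Most THP-1 peaks of the windows were also M2 peaks, and most M2 peaks were not THP-1 peaks. With at least 1 bp in common, 75 of 196 M2 peaks were shared, 38.3% (31.4 to 45.5%), against 37.0% of the whole M2 list and 44.7% of the rest of chromosome 19 (42.5 to 46.9%). Of the THP-1 peaks, 83 of 92 were shared, 90.2% (82.2 to 95.4%), against 75.3% of the whole THP-1 list and 86.1% of the rest (83.9 to 88.0%). The M2 share is thus near that of the whole list, and both intervals overlap those of the rest of the chromosome. The THP-1 share lay above that of the whole list, as did that of the rest of chromosome 19. With stricter lists the M2 share did fall below that of the rest: at a -log10 q of 10 or more it was 19.1% (13 to 26.6%) against 30.7% (28.2 to 33.2%), and at 5 or more 28.7% (22.3 to 35.9%) against 39.2% (36.8 to 41.5%). With each list cut to its strongest 31444 peaks it was 45.0% (36.3 to 54.0%) against 57.0% (54.2 to 59.8%).

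By window, the M2 share was 18.2% in window A (6.98 to 35.5%), 21.7% in window B (7.46 to 43.7%) and 28.9% in window D (16.4 to 44.3%). It was 50% in window C (26.0 to 74.0%) and 54.5% in window E (42.8 to 65.9%). The interval of window A lay below that of the rest, that of window E overlapped it, and those of A and E did not overlap. Few THP-1 peaks can meet only few M2 peaks, so the M2 share is limited by the peak numbers. Window A had 8 THP-1 peaks for 33 M2 peaks. The M2 shares, by window or with stricter lists, were not separated from the ratio of M2 to THP-1 peaks. Without window E the M2 share was 27.7% (19.9 to 36.7%). THP-1 peaks were shared in 6 of 8 cases in window A, 5 of 6 in window B, 10 of 12 in window C, 15 of 15 in window D and 47 of 51 in window E.

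**Figure D4:**
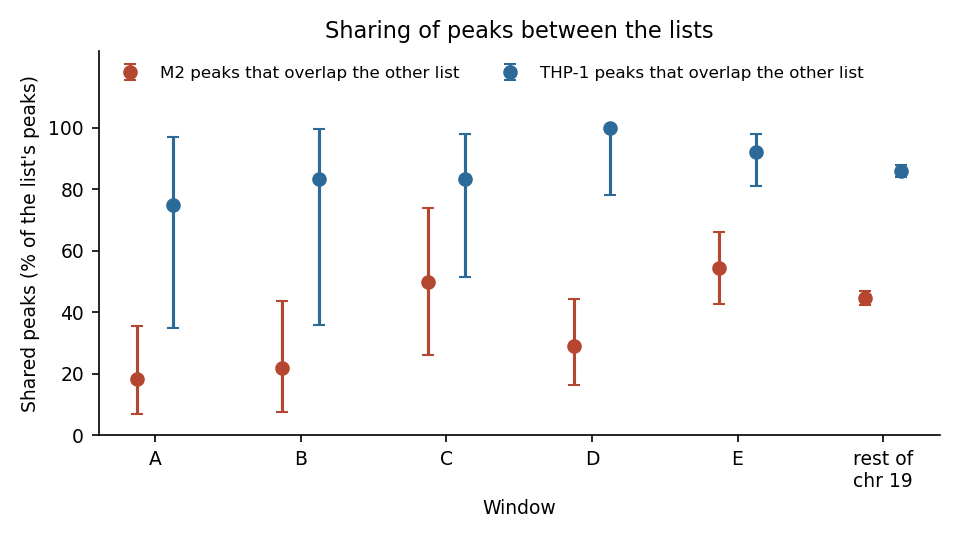
Share of peaks of each list that overlap the other list (y axis, %) in windows A to E and the rest of chromosome 19 (x axis), with exact 95% binomial intervals, M2 in red and THP-1 in blue. M2 shares range from 18.2% in window A to 54.5% in window E, and THP-1 shares from 75% to 100%.

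Wide and strong peaks are shared more often, so shares were also compared at like width and strength, in quartiles of the M2 peaks of chromosome 19. Among the widest, over 1340.5 bp, 57.1% of 42 window peaks were shared (41.0 to 72.3%), against 73.8% of the rest (69.7 to 77.6%). From the first to the third quartile of width the shares were 13.9%, 37.5% and 41.3% in the windows, against 18.5%, 33.7% and 52.4%, so the second went the other way, and the intervals overlapped in all 4. In the third quartile of -log10 q, 18.3 to 37.4, 34.4% of 61 were shared (22.7 to 47.7%), against 53.9% (49.3 to 58.4%), and these intervals did not overlap. In the top quartile of -log10 q the shares were 69.2% (52.4 to 83.0%) and 71.5%. In the lower quartiles of -log10 q they were 21.7% and 34.0%, against 20.5% and 32.6%. The lower share of window peaks was therefore seen in 1 quartile of -log10 q beyond the intervals, out of 4. In quartiles of fold the intervals overlapped in all 4, with 45.2% (27.3 to 64.0%) against 64.7% (60.4 to 68.9%) in the top one.

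The M2 peaks without a THP-1 partner lay far from any THP-1 peak. The 121 of them had a median distance of 43935 bp to the nearest THP-1 peak, and 100, 82.6%, were more than 10 kb away. In the rest of the chromosome the median was 11187 bp and 52.0% were more than 10 kb away. THP-1 peaks are also spread more thinly in the windows, which moves with this distance. Their median width was 670 bp, against 912 bp for shared M2 peaks of the windows. The 9 THP-1 peaks without an M2 partner lay nearer, at a median distance of 502 bp from an M2 peak, with 2 beyond 10 kb. THP-1-only peaks of the rest of the chromosome were also nearer than M2-only ones there, at a median of 5699 bp, with 51 of 161 beyond 10 kb.

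Fold enrichment, the authors' ratio of the peak summit to its local background, had a median of 5.17 in the M2 peaks of the windows and 5.43 in those of the rest. In the THP-1 list it was 2.45 in the windows and 3.18 in the rest. The number of fragments over the summit and the local background could be solved from the deposited fold and p in 191 of the 196 M2 peaks of the windows and in 86 of the 92 from THP-1. The median peak rested on 59 fragments for M2, against 54 in the rest, and on 73 for THP-1, also against 54, so window peaks were not the more thinly covered. The lower THP-1 fold went with a higher background, 13.3 times the lowest of its list in the windows and 8.84 times in the rest. For M2 peaks the background was 4.65 and 3.61 times the lowest. THP-1 background medians were 9.41, 13.1, 9.99, 18.7 and 16 in windows A to E, and M2 medians 3.10, 3.61, 4.13, 5.07 and 5.16. A higher background raises the number of fragments needed for a call, and its part in the number, width and sharing of peaks was not tested.

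**Figure D5:**
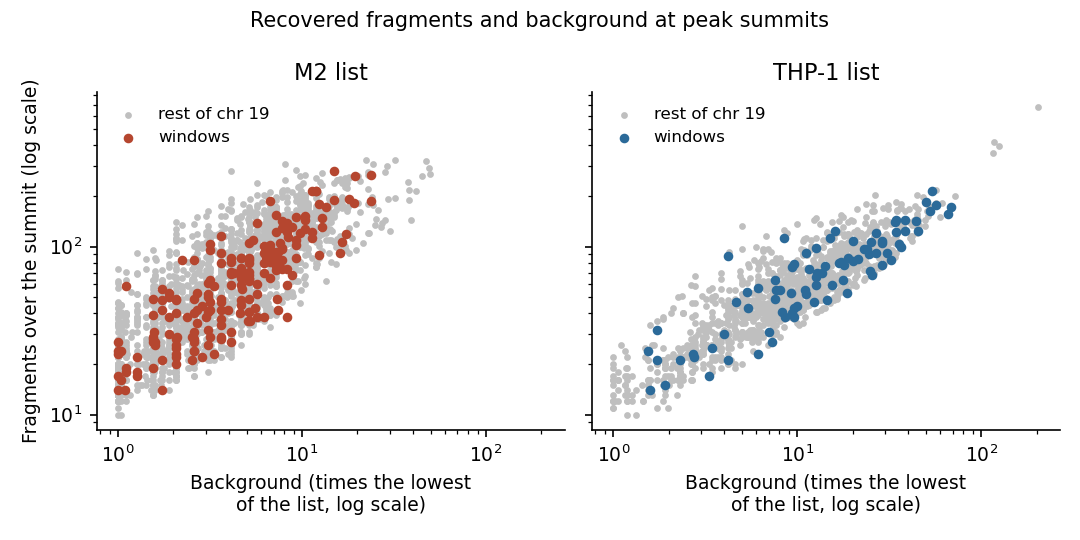
Fragments over the summit (y axis, log scale) against local background (x axis, times the lowest of the list, log scale) for peaks of chromosome 19 with a single solution, M2 list left and THP-1 list right, with the windows in colour and the rest in grey. Window peaks lie within the range of the rest, and THP-1 window peaks lie towards higher background, at a median of 13.3 against 8.84.

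In 67 places a single M2 peak met a single THP-1 peak, with no other peak involved. M2 gave the wider peak in 56 of these 67 pairs, 83.6%, against 76.3% of 696 such pairs in the rest. The median ratio of M2 to THP-1 width was 1.46 in the windows and 1.40 in the rest, so the pairs of the windows were much like others in this ratio. Both partners were narrower than elsewhere, with medians of 830 and 553 bp against 1066 and 643.5 bp. Summits lay a median of 76 bp apart, and within 200 bp in 48 of 67 pairs, 71.6%, against 77.6% of pairs in the rest. In windows A and B all 6 and 5 pairs had the wider peak in M2, with median ratios of 2.41 and 2.43, and window E had a median of 1.3 over 37 pairs.

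Single peaks show the range of these patterns, and all coordinates from here on are in hg19. The strongest M2 peak of window A, by -log10 q, was chr19:21688336-21690161, 1826 bp wide, with 171 fragments and a 5.37-fold enrichment. Its THP-1 partner, chr19:21689453-21689797, was 345 bp wide, with 31 fragments and 2.39-fold. This was the most unequal pair of window A, at a width ratio of 5.29. The M2-only peak of highest fold in window A was chr19:24215679-24217737, 2059 bp and 8.48-fold, at 345963 bp from any THP-1 peak. The THP-1 peak of highest -log10 q there was chr19:19977070-19977515, 446 bp, which was 1.80-fold on 123 fragments, over a background 38.4 times the lowest of the list.

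In window B the strongest M2 peak had no THP-1 partner. It was chr19:36979778-36981365, 1588 bp and 9.83-fold, with 139 fragments, and lay 37257 bp from a THP-1 peak. The strongest THP-1 peak, chr19:37262801-37263604, was 2.05-fold with 105 fragments. The most unequal pair, chr19:37018486-37020214 and chr19:37018623-37019086, measured 1729 bp in M2 and 464 bp in THP-1.

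In window C both lists had their strongest peak at the same place. The M2 peak chr19:44455298-44455972 was 675 bp wide and 15.8-fold, the highest fold of any window, on 58 fragments. The THP-1 peak chr19:44455414-44455955 was 542 bp wide and 4.37-fold, on 76 fragments. The fold of each is over its own list's background, here 1.11 times the lowest of the M2 list and 9.41 times the lowest of the THP-1 list, and the folds were not compared. The most unequal pair, chr19:44506423-44508400 and chr19:44508026-44508474, measured 1978 and 449 bp.

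Window D held the widest M2 peak of all windows, chr19:52325891-52329308, which was 13.4-fold and overlapped 2 THP-1 peaks. The M2-only peak chr19:52313924-52315737, 1814 bp and 11.8-fold, lay 10191 bp from a THP-1 peak. Both of these M2 peaks lie close to the window's start at 52.3 Mb. Neither was assigned to a gene, so they are not to be credited to zinc finger genes. The strongest peak by -log10 q was chr19:52693214-52694558 in M2, 1345 bp and 7.84-fold with 213 fragments. In THP-1 it was chr19:53031068-53031839, 772 bp and 2.50-fold with 120 fragments. The most unequal pair, chr19:52641997-52643216 and chr19:52642007-52642494, measured 1220 and 488 bp. No THP-1 peak of this window lacked an M2 partner.

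Window E held the peak of highest -log10 q of all windows, the M2 peak chr19:56164742-56167635, 2894 bp and 7.97-fold with 283 fragments. It lies in the first 250 kb of the window, where both lists were dense. The strongest M2-only peak by fold, chr19:58427396-58428035, was 640 bp wide and 12.3-fold, 30389 bp from a THP-1 peak. The most unequal pair of any window was chr19:56824352-56827453 in M2, 3102 bp with 180 fragments, and chr19:56825252-56825711 in THP-1, 460 bp with 97 fragments, a width ratio of 6.74.

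Close by, in the same window, lay an exception to these patterns. The THP-1 peak chr19:56849480-56852841 was 3362 bp wide and 10.5-fold on 88 fragments, and it was the widest and strongest THP-1 peak of all windows. The nearest M2 peak was 12799 bp away. It lies in the 1 bin of 250 kb where THP-1 peaks outnumbered M2 peaks, 10 against 8. The other THP-1-only peak beyond 10 kb was chr19:23258214-23258589 in window A, 376 bp and 2.45-fold, 41196 bp from an M2 peak.

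Between the peaks lay long stretches without any. The median gap to the next M2 peak was 26685 bp in the windows and 6758.5 bp in the rest, and for THP-1 peaks 29706 and 10720 bp. In window A the M2 median was 90811 bp. The longest stretch without a peak in either list was chr19:20349223-21106028 in window A, 756.8 kb. It was chr19:57107133-57702490 in window E, 595.4 kb, chr19:37342320-37568641 in window B, 226.3 kb, and chr19:44809237-45000000 in window C, 190.8 kb up to the window's end. Window D had the shortest, chr19:53696567-53836968, 140.4 kb. Stretches of at least 100 kb without a peak in either list made up 82.3% of window A, 42.5% of windows B and C, 22.4% of window D and 49.0% of window E. By the THP-1 list alone such stretches made up 96.9%, 91.1%, 49.4%, 77.1% and 55.5% of windows A to E. Windows B and D were thus mostly free of THP-1 peaks and not of M2 peaks, and in window E the shares of the 2 lists were close, 55.5% and 49.0%.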

How the data were processed

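Chromatin was immunoprecipitated for H3K27ac in THP-1 and M2 cells and sequenced, 1 library each, per the labels' protocols. The submitters' processing notes name Bowtie2, MACS2 2.1.0 and the build hg19. Settings, and any use of the inputs as control, are not given in the sources used here. Deposited lists are narrowPeak tables without a header, 1 per library. Their numbering starts above 1, so they may not hold every peak called, and it is unbroken on chromosome 19. Each peak carries the authors' deposited fold ratio, -log10 p, -log10 q and a score, which was not used. These are the peak's own values and were compared within a list only, except that the same -log10 q thresholds were set on both lists. The median -log10 q in the windows was 19.0 for M2 and 8.43 for THP-1, so the lists are not cut alike. At 10 or more, 141 of 196 M2 and 39 of 92 THP-1 peaks of the windows remained. Where folds of overlapping peaks of both lists are given, each is over its own list's background.

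Peaks sharing at least 1 bp were called shared, and the Y chromosome was left out. The rest of chromosome 19 runs from its first to its last peak, less the windows and the longest stretch free of peaks. Intervals are exact: binomial (Clopper-Pearson) for shares and ratios, Poisson for densities, order statistics for medians. Fragments and background were solved from fold and p by the usual MACS2 relations, which gave whole numbers (tolerance 0.02) in 99.997% of the M2 list and 100% of the THP-1 list, with a single solution in 97.4% and 95.0%. Total depth is unknown. Overlap and recovery were tested on simulated data.

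The peaks named are, for each window and list, the peak of highest -log10 q, the widest, and the one of highest fold in 1 list only, and for each window the longest stretch without peaks and the most unequal pair. The widest or THP-1-only ones are given where they add to the text, and chr19:23258214-23258589 and the neighbourhood of the widest THP-1 peak were chosen after their values were seen. The windows, the gene list and the settings were chosen with earlier results of these data known. Alternatives were other thresholds, list lengths, memberships, merging and definitions of shared, and each window left out. Sequences around summits, gene annotation of the peaks and protein sequences, also planned, were not used here. Python 3.11.15 was used.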

Additional observations from a re-analysis of the deposited data

How the results depend on the processing

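Over 71 values of the windows under other settings, 14 moved beyond their interval and were marked as moved, and the cause was not tested. The other 57 were marked as unchanged, but some peak counts beyond their interval are among them. M2 peaks fell to 141 at a -log10 q of 10 or more and to 131 with lists of equal length, outside 169.5 to 225.4. THP-1 peaks fell to 66 at 5 or more, outside 74.2 to 112.8. The ratio of M2 to THP-1 peaks stayed above 1 and above that of the rest of the chromosome under the thresholds, equal list lengths and merging. With -log10 q at 10 or more it was 3.62 (rest 2.51), with 39 THP-1 peaks. Median widths were then 891 bp (M2, rest 1068 bp) and 621 bp (THP-1, rest 814 bp). Shared shares were 19.1% (M2, rest 30.7%) and 76.9% (THP-1, rest 83.5%). The THP-1 share was thus below that of the rest at this threshold, with overlapping intervals (60.7 to 88.9% and 80.0 to 86.6%). With -log10 q at 5 or more, the M2 share was 28.7% (rest 39.2%). With each list cut to its strongest 31444 peaks, the ratio was 1.42 (rest 1.08) and the median M2 width 893 bp (rest 1105 bp). The THP-1 share was then 72.8%, as in the rest (72.8%). Merging peaks within 1000 bp gave a median M2 width of 891 bp (rest 1257.5 bp). Counting a peak within 1000 bp as shared gave a THP-1 share of 96.7% (rest 89.4%). Without window E the ratio was 2.90 and the M2 share 27.7%, so the pooled values of the windows rest in part on it. Leaving out the first 250 kb of window E, a setting chosen after seeing the data, moved no value beyond its interval. No paired analysis was possible because there is 1 library per cell type and no test.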

Other observations

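The ETS core differed in frequency among the promoters of the clusters. It was in 19 of 26 RefSeq promoters of window A genes, 73.1% (52.2 to 88.4%), in 63.3% of 30 in window D and in 58.3% of 48 in window E. In window B it was in 7 of 27, 25.9% (11.1 to 46.3%), and in window C in 37.5% of 16. The intervals of windows A and B did not overlap. They count each promoter as independent, though the genes of a cluster arose by duplication, so they hold counting error only. The difference was not particular to the ETS core. The GC box was in 73.1%, 25.9% and 37.5% of the same promoters in windows A, B and C, and in 86.7% and 64.6% in windows D and E. Window A had the lowest density of H3K27ac peaks, 7.17 per Mb in M2, and window B the next lowest, 16.4 per Mb. The share of the ETS core and the density of peaks thus did not follow the same order. The median number of CG dinucleotides in these promoters was 10 in window A and 25 in window D.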
